A study of Mus musculus with 16 samples.

Results

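The genes described here are those of the mouse MHC class II pathway, namely the classical chains H2-Aa, H2-Ab1 and H2-Eb1, the invariant chain Cd74, the peptide exchange chains H2-DMa, H2-DMb1 and H2-DMb2, the H2-O chains H2-Oa and H2-Ob, and the coactivator Ciita. They were chosen by name, with earlier results of these data known, and number 10 of the 18635 genes in the deposited tables. RNA was sequenced from mouse samples described as tumours that formed after implantation of tumour cell lines into syngeneic mice. The groups were 5 KPC libraries with the genotype Trp53bp1 KO, 5 KPC libraries with the genotype WT, 3 ID8 libraries with the genotype Trp53bp1 KO and 3 ID8 libraries with the genotype WT. KPC is a pancreatic cancer line and ID8 an ovarian surface epithelial cancer line of the mouse, and Trp53bp1 encodes the DNA repair factor 53BP1. The labels give no other treatment, allele, age, strain or sex, and they name each genotype of a line without naming clones, so an effect of the knockout and a difference between clones cannot be told apart. A host mouse keeps its own Trp53bp1, and nothing in the labels says that immune cells were removed from the samples.

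MHC class II molecules are pairs of an alpha and a beta chain that carry peptides from the endosome to the cell surface, where CD4 T cells read them. They are made mainly by dendritic cells, B cells and macrophages, while epithelial and cancer cells make them chiefly after exposure to interferon-gamma. The protein CIITA does not bind DNA itself. It is recruited to class II promoters by the RFX, NF-Y and CREB factors bound at neighbouring elements known as the X and Y boxes, and the invariant chain, H2-DM and H2-O genes are among its targets.

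The promoters of 6 of these genes are shown because a shared promoter layout is the textbook basis of their joint regulation. Each line gives 120 bases from before the annotated start, on the gene's own strand, 5′ to 3′, from RefSeq on GRCm38.p6, another build than the GRCm39 of the counts. Capitals mark matches to AACNNATG, the X-type letters, and to TGATTGG, the Y-type letters, which contain the inverted CCAAT box (ATTGG).
H2-Aa (chr17:34287824-34287943, minus strand): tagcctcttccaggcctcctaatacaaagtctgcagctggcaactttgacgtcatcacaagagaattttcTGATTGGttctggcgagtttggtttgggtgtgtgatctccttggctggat
H2-Eb1 (chr17:34305747-34305866, plus strand): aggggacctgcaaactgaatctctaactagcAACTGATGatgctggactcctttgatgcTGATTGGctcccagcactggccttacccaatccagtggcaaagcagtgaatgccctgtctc
H2-DMb1 (chr17:34153071-34153190, plus strand): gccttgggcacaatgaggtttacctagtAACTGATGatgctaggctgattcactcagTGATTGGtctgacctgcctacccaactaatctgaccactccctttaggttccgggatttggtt
H2-DMb2 (chr17:34145113-34145232, plus strand): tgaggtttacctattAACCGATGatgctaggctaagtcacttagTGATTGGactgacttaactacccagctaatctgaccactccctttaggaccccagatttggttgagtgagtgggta
H2-Oa (chr17:34092259-34092378, plus strand): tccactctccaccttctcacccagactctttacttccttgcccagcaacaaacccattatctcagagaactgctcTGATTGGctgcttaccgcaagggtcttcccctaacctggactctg
H2-Ob (chr17:34238785-34238904, plus strand): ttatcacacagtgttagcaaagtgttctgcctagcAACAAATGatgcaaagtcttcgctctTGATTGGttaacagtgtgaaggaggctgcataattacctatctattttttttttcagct

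H2-Eb1, H2-DMb1, H2-DMb2 and H2-Ob held an X-type match followed by a Y-type match, with 26 to 29 bases from the start of the first to the start of the second. H2-Aa and H2-Oa held the Y-type match alone. Neither was found in the windows of H2-DMa, so the Y-type letters stood in 6 and the X-type letters in 4 of the 7 genes with a window (8 windows, as H2-DMa has 2 annotated starts). Windows for H2-Ab1, Cd74 and Ciita were not used here. Over 250 bases upstream and both strands, the X-type letters occurred in 7.71% and the Y-type letters in 7.23% of 32851 mouse promoter windows, and ATTGG in 33.9%. Both within 40 bases on the same strand, X-type first, occurred in 0.0609%, that is in 20 genes, of which 4 are these and another is H2-Eb2, a further class II beta chain gene. The letters were chosen with these promoters in view. A match describes the sequence and does not show that a factor was bound.

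Total counts per library ranged from 17902867 to 19727536. The targeted gene, Trp53bp1, was lower with the knockout in each line. In KPC it averaged 34.1 ± 3.99 CPM (TMM-scaled counts relative to the library total) in knockout and 51.5 ± 3.59 CPM in wild type (SD, n = 5 each; log2 fold change -0.59, SE 0.0898, edgeR adjusted p = 0.0040). In ID8 it had 349 to 366 counts per knockout library and 840 to 937 per wild-type library. The biological coefficient of variation was 25.1% in KPC and 5.08% in ID8. Replicate numbers separate tumours in the labels but do not say which mice they came from, so p-values measure the spread between these samples.

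In KPC, all 10 genes had a higher mean in knockout than in wild-type tumours, with log2 fold changes of 0.66 to 1.22 and a median of 1.15, against a median of -0.01 over all 14283 genes tested. H2-DMa passed an edgeR adjusted p of 0.05 and the other 9 did not, where 13.7% of all genes passed in either direction, 6.67% as higher and 7.01% as lower. Of those 9, 6 had adjusted p between 0.05 and 0.1, a band that was not counted over all genes. Over all 10 genes 9 had an unadjusted edgeR p under 0.05, as did 4637 of all 14283 genes tested. The standard errors of the log2 fold changes were 0.331 to 0.457. The 10 genes together made up 0.448 ± 0.168% of library counts in knockout and 0.2001 ± 0.119% in wild-type tumours (SD, n = 5 each). Their signs are not independent counts, since the genes moved together from library to library, as described further on.

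Ciita, the coactivator gene, had 59.2, 34.8, 44.3, 64.9 and 44.4 CPM in KPC knockout replicates 1 to 5, against 10.6, 27.8, 30.02, 45.9 and 9.02 CPM in wild-type replicates 1 to 5. The groups overlapped because wild-type replicate 4 exceeded knockout replicates 2, 3 and 5. The means were 49.5 ± 12.3 CPM in knockout and 24.7 ± 15.3 CPM in wild type (SD, n = 5 each), a log2 fold change of 1.00 (SE 0.416, edgeR adjusted p = 0.126), and an exact two-sided permutation test of the log2 values gave p = 0.0317. Of the 7 factors listed as binding class II promoters, 0 passed in KPC (median log2 fold change -0.04). Those nearest were Rfxap, an RFX subunit (log2 0.33, SE 0.110, edgeR adjusted p = 0.0647), and Creb1 (log2 -0.19, SE 0.0672, edgeR adjusted p = 0.0772). Transcripts of the interferon-gamma route to Ciita rose in part, with 3 of 8 tested genes higher and 0 lower (median log2 0.31). Irf1, a transcription factor that acts on a Ciita promoter, averaged 257 ± 51.8 CPM in knockout and 129 ± 40.01 CPM in wild type (log2 0.99, SE 0.212, edgeR adjusted p = 0.0170). The receptor kinase Jak2 rose by a log2 change of 0.41 and Socs1, a feedback inhibitor, by 1.13. Ifng itself, the cytokine gene, averaged 0.654 ± 0.364 CPM in knockout and 0.209 ± 0.162 CPM in wild type (SD, n = 5 each), too few counts for a test.

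The classical chains, which form the peptide-binding molecules themselves, had the higher levels after Cd74. H2-Ab1, the beta chain of I-A, had 1211, 474, 595, 868 and 633 CPM in knockout replicates 1 to 5, against 151, 315, 459, 607 and 153 CPM in wild-type replicates 1 to 5. Wild-type replicate 4 exceeded knockout replicates 2 and 3, and wild-type replicates 1 and 5 stood lowest. The knockout exceeded wild type by a log2 fold change of 1.17 (SE 0.424; edgeR adjusted p = 0.0909; exact permutation p = 0.0238). H2-Aa, its alpha chain, averaged 824 ± 311 CPM in knockout and 383 ± 239 CPM in wild type (SD, n = 5 each; log2 1.11, SE 0.434, edgeR adjusted p = 0.111). H2-Eb1, the I-E beta chain, averaged 653 ± 267 CPM in knockout and 281 ± 171 CPM in wild type (log2 1.22, SE 0.436, edgeR adjusted p = 0.0873). For both, wild-type replicate 4 again lay within the knockout range and the other 4 wild-type libraries lay below it. H2-Eb2, a related beta chain gene outside the 10, had a log2 fold change of 1.36 (SE 0.538, edgeR adjusted p = 0.109) at 1.39 ± 0.766 CPM in knockout and 0.535 ± 0.359 CPM in wild type. H2-Ea, the I-E alpha chain gene, was looked up under that symbol and was not among the genes of the deposited counts. It therefore has no values here.

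Cd74 encodes the invariant chain, which fills the groove of new class II molecules and leads them to the endosome. It had 3093, 1225, 1638, 2395 and 1542 CPM in knockout replicates 1 to 5, against 402, 811, 1125, 1538 and 408 CPM in wild-type replicates 1 to 5. Knockout replicate 2 lay below wild-type replicate 4, and wild-type replicates 1 and 5 were again lowest. The log2 fold change of Cd74 came to 1.21 (SE 0.411; edgeR adjusted p = 0.0760; exact permutation p = 0.0159).

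H2-DM removes the remnant of the invariant chain from the groove and edits the peptides bound there. H2-DMa, its alpha chain, had 156, 71.1, 88.1, 122 and 88.9 CPM in knockout replicates 1 to 5, against 27.3, 45.5, 56.5, 74.5 and 23.8 CPM in wild-type replicates 1 to 5. All but knockout replicate 2 lay above every wild-type library. H2-DMa averaged 105 ± 33.99 CPM in knockout and 45.5 ± 21.0 CPM in wild type, and it rose by a log2 change of 1.21 (SE 0.331, edgeR adjusted p = 0.0389, exact permutation p = 0.0159). The call held without knockout replicate 2 or without wild-type replicate 4 and was lost on leaving out any of the other 8 libraries (edgeR adjusted p of 0.0126 to 0.0886 over the 10 fits). H2-DMb1, a beta chain, averaged 113 ± 34.7 CPM in knockout and 51.6 ± 27.2 CPM in wild type (log2 1.13, SE 0.368, edgeR adjusted p = 0.0658). H2-DMb2, the second beta chain gene, averaged 19.7 ± 10.3 CPM in knockout and 8.65 ± 4.68 CPM in wild type (log2 1.18, SE 0.440, edgeR adjusted p = 0.0945). Their transcripts are 96.0% identical over 1045 aligned bases, and 26.6% of the 50-base stretches of H2-DMb1 also occur in H2-DMb2, so the split of reads between them is uncertain. Summed, they gave a log2 fold change of 1.14 (SE 0.377, edgeR adjusted p = 0.0697). H2-DMb2 took 14.2 ± 2.65% of the sum in knockout and 14.3 ± 2.31% in wild type.

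H2-O is an inhibitor of H2-DM known mainly from B cells and dendritic cells. H2-Ob, its beta chain, had 5.11, 3.33, 4.70, 4.66 and 3.56 CPM in knockout replicates 1 to 5, against 1.09, 2.34, 3.04, 3.25 and 0.820 CPM in wild-type replicates 1 to 5. It was the only one of the 10 genes whose groups did not overlap, where all knockout libraries lay above all wild-type libraries for 5.34% of the genes tested. The margin was narrow, with the lowest knockout library at 3.33 and the highest wild-type library at 3.25 CPM. The log2 fold change of H2-Ob came to 1.01 (SE 0.358; edgeR adjusted p = 0.0804), and an exact permutation p of 0.00794 is the smallest that 5 against 5 libraries allow. H2-Oa, its alpha chain, had 4.40, 2.06, 2.84, 2.83 and 3.56 CPM in knockout replicates 1 to 5, against 0.983, 2.12, 3.15, 3.20 and 0.438 CPM in wild-type replicates 1 to 5. Wild-type replicates 2, 3 and 4 lay within the knockout range. Its log2 fold change of 0.66 (SE 0.457, edgeR adjusted p = 0.334) was the smallest of the 10. Counts of H2-Oa and H2-Ob per 100 counts of the 3 H2-DM genes were 3.22 ± 0.487 in knockout and 3.69 ± 0.872 in wild type (SD, n = 5 each).

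**Figure D1:**
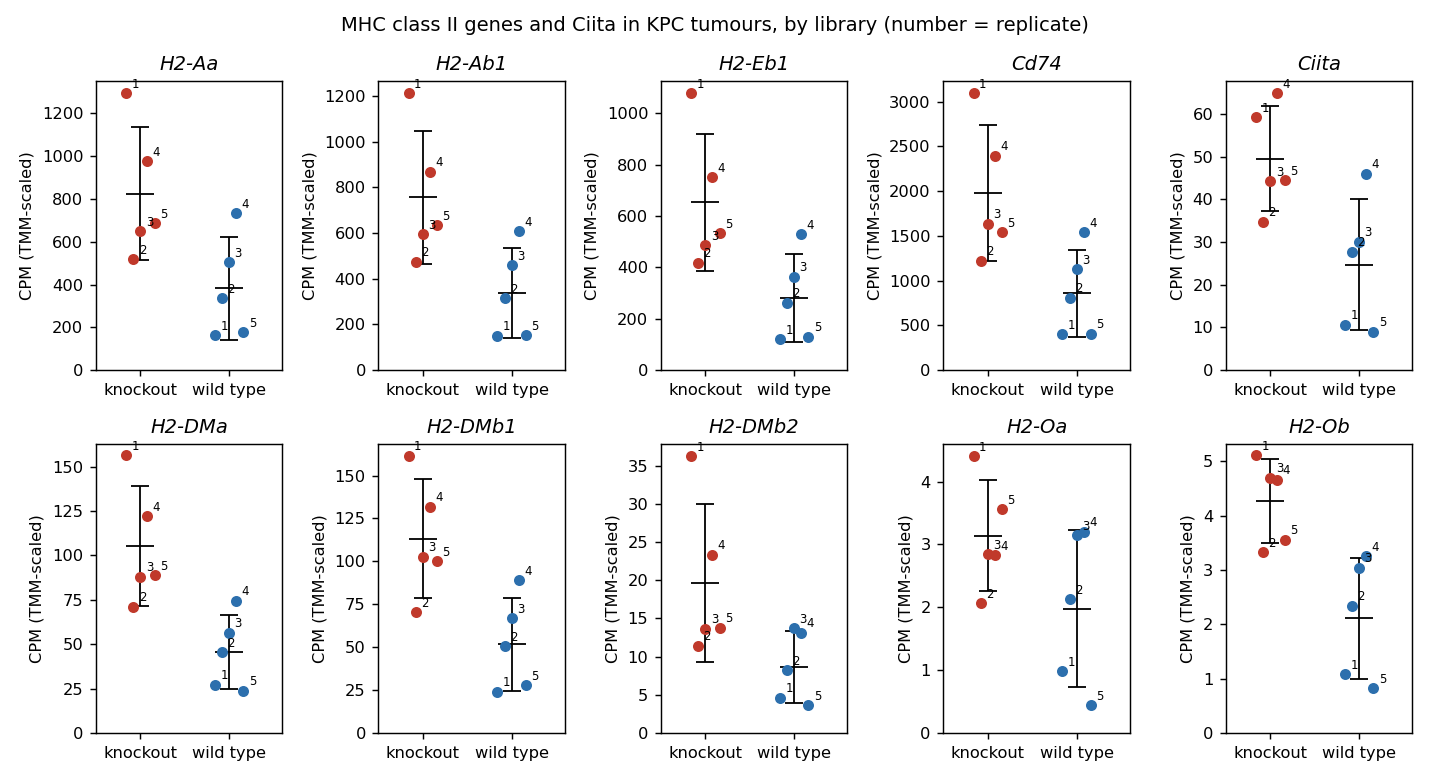
CPM (TMM-scaled, vertical axis from 0) of each of the 10 genes in KPC knockout and wild-type libraries, where each point is a library marked with its replicate number. The groups overlap for every gene but H2-Ob, and wild-type replicates 1 and 5 are the lowest of their group in each panel.

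The spread within a genotype followed the same libraries from gene to gene. In wild type, replicates 1 and 5 were the 2 lowest and replicates 3 and 4 the 2 highest for 10 of 10 genes. The highest wild-type library was 3.13 to 7.31 times the lowest, and the highest knockout library 1.54 to 3.18 times the lowest, with the wider ratio in wild type for 10 of 10 genes. Knockout replicate 2 was the lowest knockout library for 10 genes and replicate 1 the highest for 9, with replicate 4 the highest for Ciita. With the genotype means removed, the log2 levels of Ciita, Cd74, the classical chains and the H2-DM genes had a Pearson r of 0.879 to 0.998 between genes over the 10 KPC libraries (28 pairs). The 17 pairs that include H2-Oa or H2-Ob had 0.877 to 0.961. Among 13089 genes, those most like H2-Ab1 were H2-Eb1 (r = 0.998), H2-Aa (0.998), Cd74 (0.997), H2-DMa (0.993), H2-DMb1 (0.990) and Psmb8, an immunoproteasome subunit of the class I pathway (0.989). The median gene had an r of -0.0378, H2-DMb2 ranked 28, Ciita 55, H2-Ob 131 and H2-Oa 220. These values describe 10 libraries in which the leukocyte gene Ptprc ranged from 51.0 to 222 CPM. Joint regulation and a shift in cell mixture cannot be told apart by them, and genes of lower count carry more counting noise.

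Set per kilobase of exon, the genes fell in the same order in knockout and wild type. Cd74 had 1397 CPM per kilobase in knockout and 605 in wild type, H2-Aa 731 in knockout and 339 in wild type, H2-Ab1 624 in knockout and 278 in wild type, and H2-Eb1 391 in knockout and 168 in wild type. The peptide exchange chains came next, with H2-DMb1 at 80.7 in knockout and 36.8 in wild type, H2-DMa at 39.5 in knockout and 17.1 in wild type, and H2-DMb2 at 11.3 in knockout and 4.95 in wild type. Ciita, a regulator, had 6.02 CPM per kilobase in knockout and 3.00 in wild type. H2-Oa, at 2.88 in knockout and 1.82 in wild type, and H2-Ob, at 1.22 in knockout and 0.600 in wild type, were lowest. Each gene exceeded the next in 5 of 5 libraries of each genotype. Between libraries the ranges of neighbours overlapped, except between H2-Eb1 and H2-DMb1 and between H2-DMa and H2-DMb2 in both genotypes, and except for Ciita, H2-Oa and H2-Ob against each other in knockout. Exon lengths came from an annotation of the other build, GRCm38.

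The proportions among the genes overlapped between genotypes. Per 100 H2-Ab1 counts there were 109 ± 2.11 H2-Aa counts in knockout and 112 ± 5.57 in wild type, 85.9 ± 2.96 H2-Eb1 counts in knockout and 82.9 ± 3.23 in wild type, and 262 ± 13.9 Cd74 counts in knockout and 258 ± 9.35 in wild type (SD, n = 5 each). For all 9 genes the ranges of this ratio overlapped between genotypes, and the mean ratio in knockout was 0.766 to 1.04 times that in wild type.

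Ptprc, the pan-leukocyte gene of CD45, moved with the class II genes over these libraries. It had 218, 105, 133, 222 and 137 CPM in knockout replicates 1 to 5, against 51.0, 56.7, 92.8, 141 and 51.2 CPM in wild-type replicates 1 to 5. Its log2 fold change of 1.05 (SE 0.331, edgeR adjusted p = 0.0597) was close in size to those of the class II genes, and its r with H2-Ab1 over the libraries was 0.915. In bulk samples, fewer cells of a type and less RNA per cell cannot be told apart. Per 100 Ptprc counts, H2-Ab1 had 556, 451, 447, 391 and 462 counts in knockout replicates 1 to 5, against 295, 555, 495, 432 and 298 in wild-type replicates 1 to 5. Wild-type replicates 1 and 5 remained low on this scale and the other 3 lay within the knockout range. Cd74 had 1204 ± 133 counts per 100 Ptprc counts in knockout and 1065 ± 277 in wild type, and Ciita 31.05 ± 2.70 in knockout and 30.5 ± 12.4 in wild type (SD, n = 5 each). The ranges of this ratio overlapped between genotypes for all 10 genes, and its mean in knockout was 0.819 to 1.15 times that in wild type (median 1.08).

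**Figure D2:**
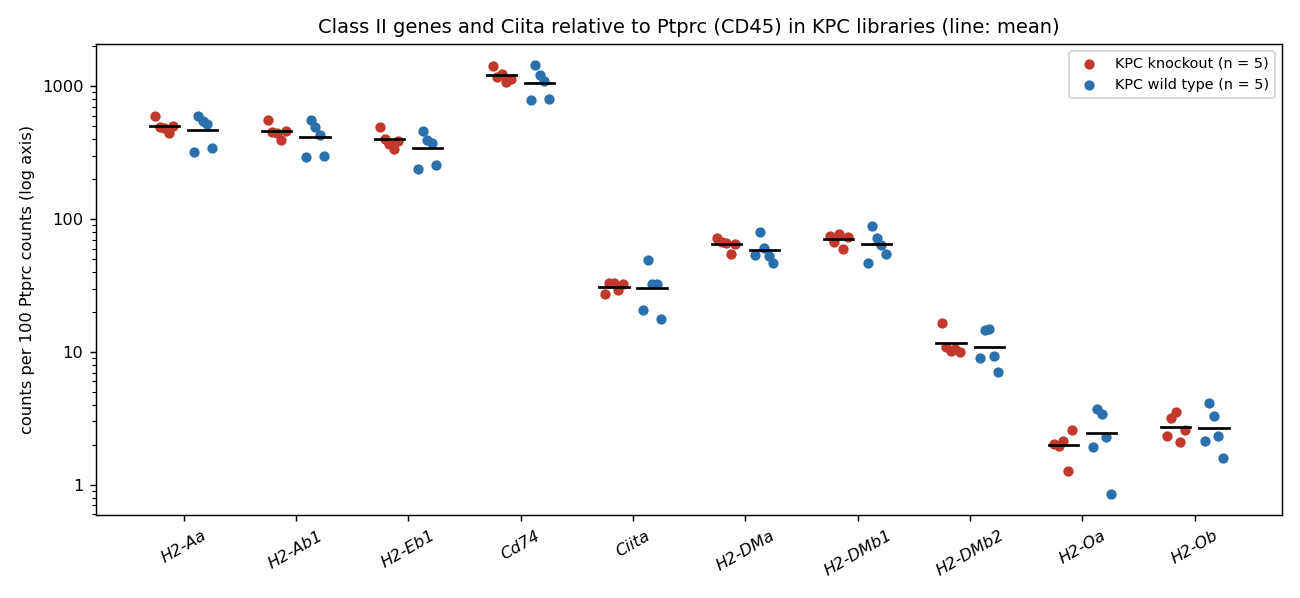
Counts of each gene per 100 Ptprc counts (log axis) in KPC knockout and wild-type libraries, where points are libraries and lines are means. The groups overlap for all 10 genes, with mean ratios in knockout of 0.819 to 1.15 times those in wild type.

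With the Ptprc level as a covariate in the edgeR fit, 0 of the 10 genes passed. The log2 fold changes were then -0.32 to 0.22 with a median of -0.02 and edgeR adjusted p of 0.626 to 0.992. That fit called 348 genes in all (2.44%), and it takes out any genotype difference that runs along with Ptprc. The count of calls also changed with the libraries included. Without wild-type replicate 4, 8 of the 10 genes passed, all but H2-DMb2 and H2-Oa, with a median log2 fold change of 1.44. In that fit 21.6% of all genes passed and 11.5% passed as higher. Without wild-type replicate 1, 0 of the 10 passed, where 6.5% of all genes passed and 2.85% passed as higher. The count was likewise 0 on leaving out any other library except wild-type replicate 4 and knockout replicate 2.

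**Figure D3:**
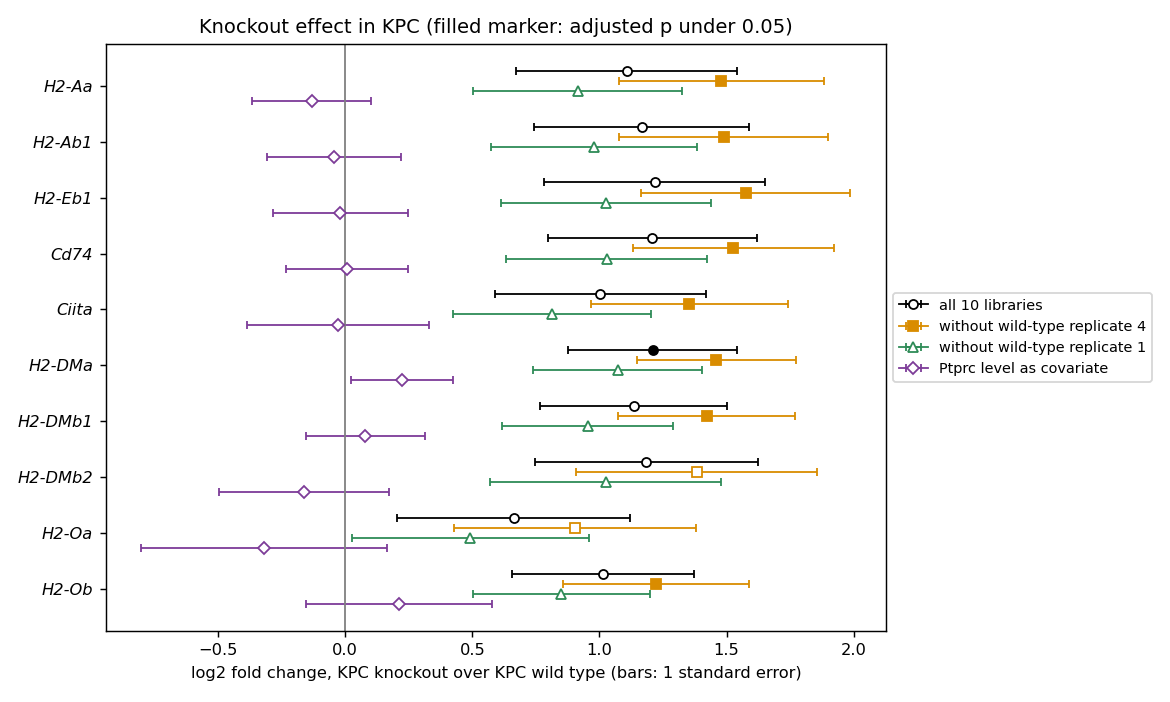
Log2 fold change of each gene, KPC knockout over KPC wild type, with bars of 1 standard error, for all 10 libraries, without wild-type replicate 4, without wild-type replicate 1 and with the Ptprc level as a covariate. Filled markers passed an edgeR adjusted p of 0.05, which H2-DMa did with all libraries, 8 genes did without wild-type replicate 4, and 0 did in the other fits.

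Genes that serve the class II pathway in the endosome and at the surface were higher in KPC knockout tumours in part. Of 8 endosomal processing genes, 4 rose and 0 fell, with a median log2 of 0.45. Ctss, cathepsin S, which trims the invariant chain, averaged 674 ± 150 CPM in knockout and 306 ± 120 CPM in wild type (SD, n = 5 each; log2 1.14, SE 0.251, edgeR adjusted p = 0.0187). Ctsh, an aminopeptidase of the lysosome, averaged 316 ± 53.9 CPM in knockout and 168 ± 32.5 CPM in wild type (log2 0.91, SE 0.150, edgeR adjusted p = 0.0058). Ifi30, the thiol reductase GILT, rose by a log2 change of 1.04 and the cathepsin gene Ctsz by 0.58. Of 6 genes of class II turnover and trafficking, 2 rose, namely Cd82, a tetraspanin (log2 0.43, edgeR adjusted p = 0.0208), and Marchf1, the ubiquitin ligase that removes class II from the surface (log2 0.42, edgeR adjusted p = 0.0412). Of 6 costimulatory and class II receptor genes, 2 rose, namely the costimulatory ligands Cd80 (log2 0.92, edgeR adjusted p = 0.0482) and Icosl (log2 0.79, edgeR adjusted p = 0.0489). The list medians of 0.36 and 0.79 stand beside -0.01 over all genes.

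Markers of the cells that carry class II were summed over each list, as the highest and lowest library of a genotype. Of 10 dendritic cell markers, 6 rose and 1, Fscn1, fell (median log2 1.61), with summed levels of 343 to 622 CPM in knockout and 228 to 374 CPM in wild type. Fscn1 weighed heavily in these sums, averaging 149 CPM in KPC knockout and 187 CPM in KPC wild type. It also averaged 275 CPM in ID8 knockout and 254 CPM in ID8 wild type, where Ptprc had 0 counts. The sums are thus not a measure of dendritic cells alone. Ccl22, a chemokine gene of mature dendritic cells, averaged 88.5 ± 39.4 CPM in knockout and 23.8 ± 13.3 CPM in wild type (log2 1.89, SE 0.438, edgeR adjusted p = 0.0238). Itgax, the gene of CD11c, had a log2 change of 1.43 (edgeR adjusted p = 0.0334), and Clec9a and Xcr1, markers of cross-presenting dendritic cells, had 1.79 and 1.71 (edgeR adjusted p = 0.0363 and 0.0368). Of 9 macrophage markers, 0 passed (median log2 0.69, with the lowest edgeR adjusted p at 0.0515 for Cd68), with sums of 1650 to 3195 CPM in knockout and 1067 to 2303 CPM in wild type. Of 7 B cell markers, 2 were tested, of which Cd79a rose (log2 1.75, edgeR adjusted p = 0.0335) and Cd79b had an adjusted p of 0.0533 by edgeR. B cell sums were 3.61 to 8.82 CPM in knockout and 1.34 to 3.61 CPM in wild type. Of the 4 pan-leukocyte genes 0 passed (median log2 0.95, sums of 540 to 1147 CPM in knockout and 262 to 703 CPM in wild type). Of the markers in these 4 lists, 0 stood at 0 counts in every KPC library. What part these cells had in the class II levels was not tested.

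**Figure D4:**
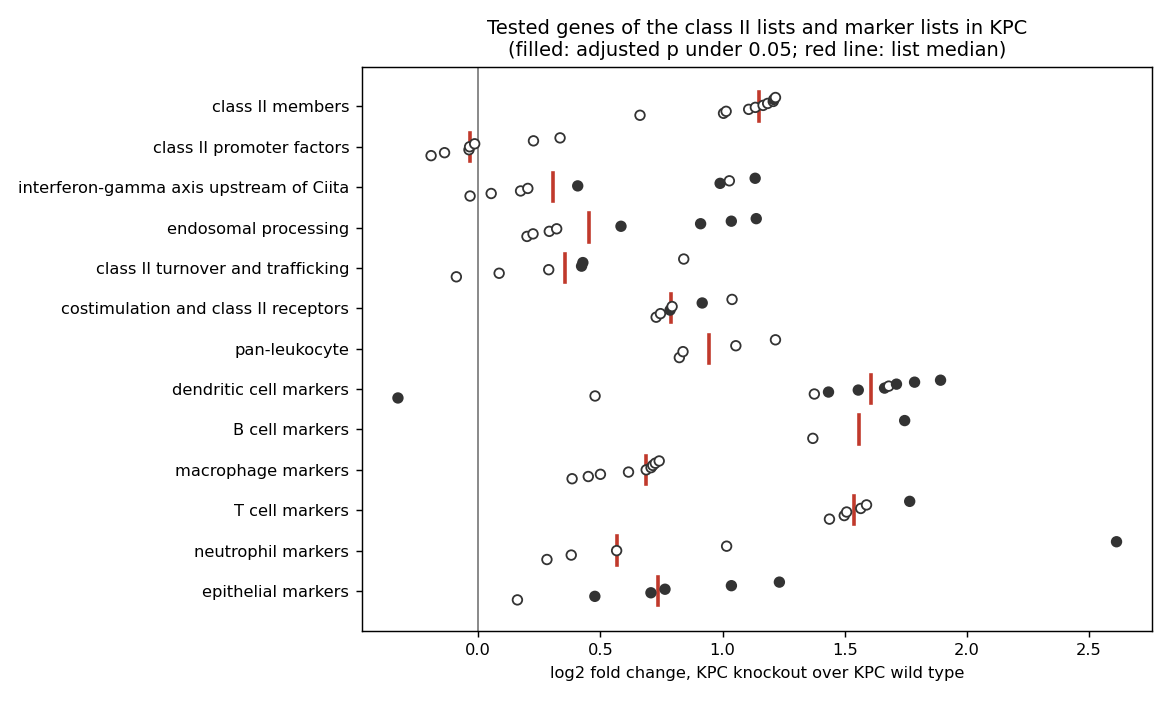
Log2 fold change, KPC knockout over KPC wild type, of each tested gene by list, where filled points passed an edgeR adjusted p of 0.05 and red lines are list medians. The class II genes lie at 0.66 to 1.22, the class II promoter factors around 0 and the dendritic cell markers around a median of 1.61.

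Markers of other cell types were summed in the same way, and such sums do not separate cell number from RNA per cell. T cell markers, which include the cells that read class II, summed to 52.3 to 101 CPM in knockout and 6.78 to 61.1 CPM in wild type, and 1 of 6 tested rose, Cd2 (log2 1.77, edgeR adjusted p = 0.0422). Of 5 neutrophil markers 1 rose and 0 fell (median log2 0.57). Their sums were 30.8 to 101 CPM in knockout and 25.3 to 58.0 CPM in wild type. The marker that rose was Ly6g (log2 2.61, edgeR adjusted p = 0.0076), at a low level. It averaged 0.935 ± 0.157 CPM in knockout and 0.147 ± 0.101 CPM in wild type (SD, n = 5 each). Epithelial markers summed to 9823 to 11973 CPM in knockout and 6029 to 7152 CPM in wild type, with 5 of 6 higher, among them the keratins Krt19 and Krt8 (log2 1.04 and 0.76). Skeletal muscle genes, of which 0 of 10 passed, summed to 20.03 to 7455 CPM in knockout and 625 to 38030 CPM in wild type. Their part in the class II values was not tested beyond the following fits. With a score of muscle genes as a covariate 0 of the 10 class II genes passed, with log2 fold changes of 0.76 to 1.11 (median 1.02) and edgeR adjusted p of 0.159 to 0.470. In that fit 3.41% of all genes passed and 1.3% passed as higher. Among the 3 knockout and 3 wild-type libraries with the muscle gene Acta1 at or under 1000 CPM, a limit added after the data were seen, 4 passed (Cd74, Ciita, H2-DMa and H2-DMb1), with log2 fold changes of 1.16 to 1.94 (median 1.79), where 14.1% of all genes passed and 8.33% passed as higher.

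ID8 libraries held few class II transcripts. Over all 6 libraries, H2-Aa, H2-DMb2, H2-Oa and H2-Ob had 0 counts, H2-Ab1 had 1, in a wild-type library, and H2-Eb1 had 6, of which 3 were in knockout and 3 in wild type. On 1 scale over all 16 libraries and taking 3 counts in a library (0.162 CPM) as the floor, the lowest KPC library was at least 986-fold higher than ID8 for H2-Aa, at least 21.5-fold for H2-DMb2, at least 4.88-fold for H2-Ob and at least 2.60-fold for H2-Oa. For genes detected in ID8, the lowest KPC library exceeded the highest ID8 library 140-fold for Cd74, 24.2-fold for H2-DMb1, 18.4-fold for Ciita and 15.3-fold for H2-DMa. Ptprc had 0 counts in every ID8 library. Also at 0 counts in every ID8 library were 6 of 10 dendritic cell and 5 of 9 macrophage markers, and 2 of 4 pan-leukocyte genes with Ptprc included. The labels describe these samples as tumours and the RNA as taken from cells. The fold differences between the lines thus compare samples with unlike leukocyte transcript levels, and whether the ID8 samples held host cells was not tested.

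**Figure D5:**
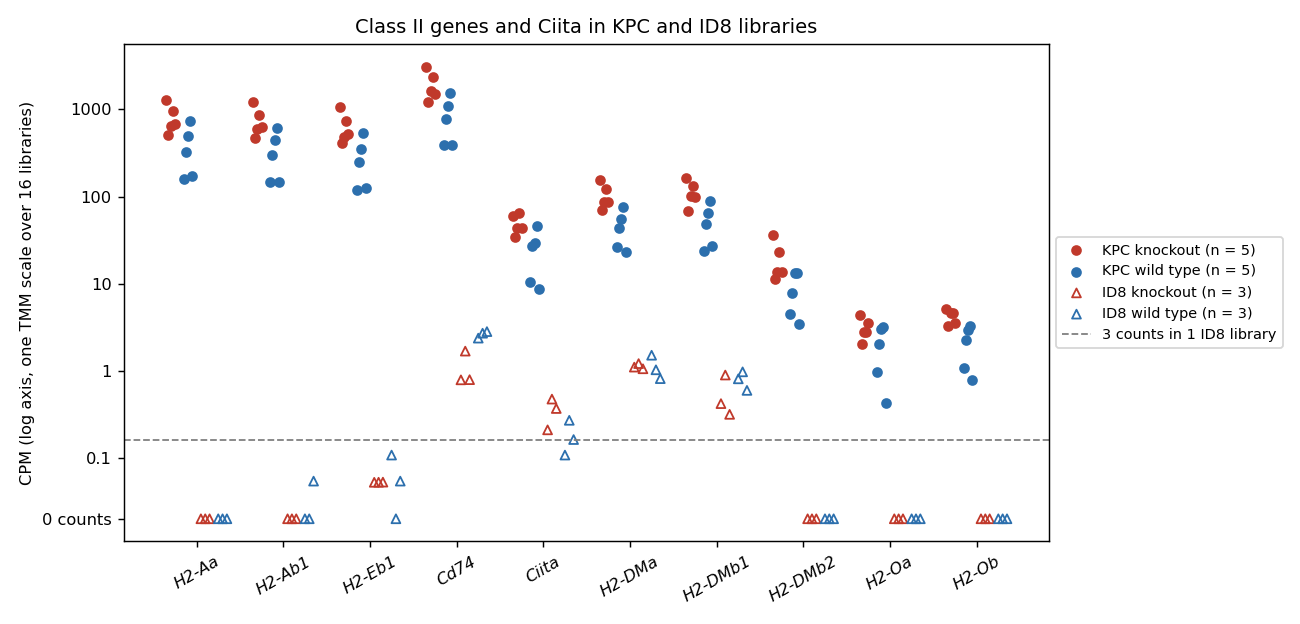
CPM of each gene (log axis, 1 scale over all 16 libraries, libraries with 0 counts drawn at the bottom) in KPC knockout, KPC wild-type, ID8 knockout and ID8 wild-type libraries. H2-Aa, H2-DMb2, H2-Oa and H2-Ob stand at 0 counts in all ID8 libraries, and the dashed line marks 3 counts in an ID8 library (0.162 CPM).

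Of the 3 genes with enough counts to test in ID8, Cd74 fell with the knockout, where 50.8% of 11933 tested genes passed, 25.4% as higher and 25.5% as lower. Cd74 had 0.766, 1.64 and 0.771 CPM in ID8 knockout replicates 1 to 3 (15, 32 and 15 counts), against 2.30, 2.64 and 2.73 CPM in ID8 wild-type replicates 1 to 3 (44, 50 and 52 counts). The groups did not overlap. All knockout libraries lay above all wild-type libraries for 29.1% of the genes tested in ID8, and the share lying below was not counted. The log2 fold change of Cd74 was -1.27 (SE 0.253, edgeR adjusted p = 0.000570). An exact permutation p of 0.1 is the smallest that 3 against 3 libraries allow. With all 4 groups in 1 fit, the log2 change of Cd74 was again -1.27 and its edgeR adjusted p was 0.223. H2-DMa had 64 counts over the ID8 knockout libraries and 62 over the wild-type libraries (log2 0.01, SE 0.268, edgeR adjusted p = 0.977). H2-DMb1 had 31 counts over the knockout and 44 over the wild-type libraries (log2 -0.53, SE 0.382, edgeR adjusted p = 0.261). Ciita had 4, 9 and 7 counts in ID8 knockout replicates 1 to 3, against 2, 5 and 3 counts in wild-type replicates 1 to 3, too few for a test.

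The knockout effect on Cd74 was more positive in KPC than in ID8 by a log2 difference of 2.49 (SE 0.760, adjusted p = 0.0310 by the edgeR interaction test), where 21.8% of 14921 genes differed between the lines with 11.6% more positive and 10.3% more negative in KPC. Fits that left out 1 library at a time gave 2.26 to 2.95, with edgeR adjusted p of 0.00949 to 0.0786. The call was lost without KPC wild-type replicate 2, without any 1 of the 3 ID8 wild-type libraries, and without ID8 knockout replicate 1 or 3. The difference was 1.22 for H2-DMa (SE 0.735, edgeR adjusted p = 0.269) and 1.69 for H2-DMb1 (SE 1.00, edgeR adjusted p = 0.259). Ifng had 0 counts in every ID8 library. The promoter factors were present in ID8, with 3 of 7 higher and 1 lower in ID8 knockout, among them Rfx5 (log2 0.23, edgeR adjusted p = 0.0047) and Rfxap (log2 -0.36, edgeR adjusted p = 0.0028). Of all genes tested in ID8, 50.8% passed, 25.4% as higher and 25.5% as lower, so that count is near the share over all genes. Ctss had 0 counts in every ID8 library.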

How the data were processed

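RNA of 16 mouse samples labelled as tumours was sequenced, in 4 groups taken from the labels. Expected counts per gene were deposited. The submitters' processing notes name HISAT, RSEM 1.2.8 and the build GRCm39 (mm39). Values that are not whole made up 7.92% to 8.96% of a table, and all were rounded. Each of the 4 tables lists genes detected in its own group, and genes absent from a table were set to 0 there. RNA was taken from cells with a column kit, per the labels' protocols, and the strandedness of the libraries is not stated there.

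Each line was tested alone with edgeR 4.0.16 (limma 3.58.1, R 4.3.3), using quasi-likelihood F tests with robust fitting, TMM scaling and filterByExpr. P-values were adjusted by Benjamini-Hochberg over all genes tested, with a threshold of 0.05. Effects in KPC and ID8 were compared by an interaction over all 16 libraries. Printed standard errors are approximate (log2 fold change over the square root of F). Exact permutation tests on log2 CPM were two-sided. CPM in the text is scaled within a line unless stated. Floors of 3 counts cover counting error only. Replicates of a group differed beyond sampling noise (at least 4.36 chi-square units per gene), so they were not the same library sequenced again. That does not show that they came from separate tumours. Each counted as its own sample because the labels call them biological replicates.

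The genes and lists were chosen with earlier results of these data known, so no list was tested as a set. From each list the text names the 2 genes of smallest p, or up to 4 that passed, and from the genes most like H2-Ab1 the first 6. Acta1, Fscn1, Rfx5 and Ifng were named after their values were seen. The alternatives tried were DESeq2 1.42.0, median-of-ratios size factors, a joint fit of the 4 groups, limma-voom with quality weights, a filter at 1 CPM, no filter, a replicate block, Ptprc or skeletal muscle covariates and leaving out each library. A limit on Acta1 and the sum of H2-DMb1 and H2-DMb2 were added after the data were seen. Tested on simulated data for KPC (5 simulations, 14193 genes), the procedure recovered 38.4%, 72.9% and 91.9% of genes changed 1.5, 2 and 4-fold, with 5.42% of calls false. For ID8 (11842 genes) it recovered 83.9%, 96.4% and 98.9%, with 8.36% false, and for the interaction (14626 genes) 17.3%, 54.1% and 78.6%, with 5.23% false. The genes changed in these simulations were drawn at random. In the KPC data the median SE was 0.120 over all genes tested, against 0.331 to 0.457 for the 10 class II genes. Recovery of genes with errors of that size was not measured, so these shares are not the recovery for the 10 genes.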

Additional observations from a re-analysis of the deposited data

Results flagged for a closer look

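The effect of the knockout on Cd74, the invariant chain gene, differed between the lines by 2.49 on the log2 scale (KPC minus ID8, SE 0.760, edgeR interaction adjusted p = 0.0310). It was picked out because the effects of the same knockout in the 2 lines differed by a test of the difference itself. In KPC the log2 fold change was 1.21 (edgeR adjusted p = 0.0760), with 5 of 5 knockout libraries above the wild-type median, and in ID8 it was -1.27 (edgeR adjusted p = 0.000570), with 3 of 3 knockout libraries below all wild-type libraries. Over all genes tested in ID8, 29.1% had every knockout library above every wild-type library, and the share below was not counted. In the joint fit of all 16 libraries, from which the interaction comes, the ID8 change of Cd74 had an edgeR adjusted p of 0.223. The interaction was lost with the replicate block (edgeR adjusted p = 0.0558) and in 6 of 16 fits that left out a library (edgeR adjusted p of 0.00949 to 0.0786 over the 16). The ID8 values rest on 62 counts over the knockout and 146 over the wild-type libraries, and Ptprc was at 0 counts in ID8 and at 51.0 to 222 CPM in KPC. The part that host cells had in the difference was not tested. Within ID8 knockout, replicate 2 stood at 1.64 CPM beside 0.766 and 0.771 CPM in the other libraries, and groups of 3 were not tested for outliers.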

How the results depend on the processing

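Of 303 values of single genes under the alternatives, 294 kept their direction. With the Ptprc level as a covariate, the KPC log2 fold changes reversed for H2-Aa (-0.13), H2-Ab1 (-0.046), H2-Eb1 (-0.019), H2-DMb2 (-0.16), H2-Oa (-0.32) and Ciita (-0.028), the covariate taking out what runs along with Ptprc. H2-DMa in ID8, at 0.01 with all libraries, ran from -0.17 to 0.28 on leaving out each library. The number of the 10 genes passing in KPC, 1 with all libraries, was 0 with no filter (9.65% of all genes passing), with the replicate block (11.7%), with the Ptprc covariate (2.44%) and with the muscle covariate (3.41%). It was 8 by DESeq2 (all but H2-Aa and H2-Oa, with 22.2% of all genes passing), 8 by limma-voom (22%), 4 in the joint fit (23.6%) and 4 under the Acta1 limit (14.1%), and 0 to 8 on leaving out each library. The cause was not tested. The count of all genes passing in KPC, 1953, was 3162 by DESeq2, 3149 by limma-voom, 3524 in the joint fit, 348 with the Ptprc covariate and 487 with the muscle covariate, and 934 to 3106 on leaving out each library (3106 without wild-type replicate 4). In ID8 the joint fit called 2681 genes against 6067, and 0 of the 3 tested class II genes against 1, its biological coefficient of variation being 21.4% against 5.08% in ID8 alone. Leaving out libraries gave 5355 to 5786 genes and 1 to 2 class II genes. The interaction called 2294 to 3551 genes on leaving out each library, and 0 to 1 class II genes. Same-numbered KPC libraries had correlations of -0.16, 0.587, 0.171, 0.276 and -0.536 of their deviations from group means and ID8 libraries -0.0928, 0.135 and -0.111. Own numbers matched best for replicate 2 alone in each line. The labels name no pairing, and these correlations cannot exclude a batch shared by same-numbered samples. With the replicate block 1665 genes passed in KPC, 5852 in ID8 and 2755 in the interaction, with 0, 1 and 0 class II genes. With 5 libraries a group and standard errors of 0.331 to 0.457, H2-DMa passed in KPC at a log2 fold change of 1.21 and the smallest of these errors, while H2-Eb1 at 1.22 (SE 0.436) did not. Counts under 10 per library limit all ID8 values of Ciita.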
